A study of Mus musculus with 21 samples.

Results

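Foxa1 binding was compared between established hepatocyte-like (iHep) cells and fibroblasts taken 48 hours after infection. The sites came from 2 deposited peak lists, made by chromatin immunoprecipitation and sequencing (ChIP-seq) with a Foxa1 antibody in cells given Foxa1 and Hnf4a, called the Foxa1 line here. The iHep list held 3435 peaks and the 48-hour list 6781, together 10216 of the 53537 peaks in the 13 lists of the series. A peak was called kept if it overlapped a peak of the other Foxa1 list by at least 1 bp. A 48-hour peak with no such overlap was called lost, and an iHep peak with none was called gained.

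All cells came from C57BL/6 mouse embryonic fibroblasts prepared at 13.5 days post coitum, and retroviruses carried the factors into them. Both stages of the Foxa1 line therefore had introduced Foxa1 and introduced Hnf4a, and no uninfected fibroblasts were analysed here. The other lists used below are Foxa2 and Foxa3 in cells given Foxa2 and Hnf4a or Foxa3 and Hnf4a, and Hnf4a in each of the 3 lines, at both stages. Also used was a 48-hour list of 1 peak, titled as a del2 mutant of Foxa3 with a Ty1 tag. Each list came from 1 library, so stage and library cannot be told apart, no replicate spread exists and no test between stages was made. The title codes differ too, with R225 on the iHep library and R222 on the 48-hour library, and their meaning is not given. Depth is unknown, and no source used here says whether the iHep cells were a clone or a pool.

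Foxa1 is a forkhead transcription factor known as a pioneer factor, because it can bind its sites in closed chromatin ahead of other factors. Foxa2 and Foxa3 share its DNA-binding domain, and Hnf4a is a nuclear receptor. All take part in liver development and in the genes of the mature hepatocyte, and a Foxa protein together with Hnf4a can turn fibroblasts into hepatocyte-like cells. A peak list records where signal passed a caller's threshold. A site missing from a list may still have been bound below it.

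In the full lists, most iHep Foxa1 sites were already peaks at 48 hours, and most 48-hour sites were not peaks in iHep cells. In the iHep list 2089 peaks were kept, which was 60.8% of it (95% Wilson interval 59.2% to 62.4%), and 1346 were gained (39.2%, 37.6% to 40.8%). In the 48-hour list 2087 peaks were kept, or 30.8% (29.7% to 31.9%), and 4694 were lost (69.2%, 68.1% to 70.3%). Gained peaks covered 529224 bp and lost peaks 2100357 bp. The lists differ in length. Nearly all overlapping pairs joined a single peak of each list, so the shorter iHep list could not reach all 48-hour peaks. This limits the kept share of 48-hour peaks but not that of iHep peaks. When each list was reduced to its 3435 highest-scoring peaks, 44.2% of iHep peaks and 44.1% of 48-hour peaks were kept. The shares were then nearly the same, and most iHep peaks were no longer kept. The contrast between the full lists thus came with their unequal lengths. Intervals here and below reflect counting error alone, and they treat peaks as independent although close neighbours are not.

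Kept sites had higher scores than lost or gained sites. The score is the authors' own value for each peak. It was used within a list, to rank peaks and to compare the medians of classes. Between lists only the order of scores was compared. In the iHep list the median score was 27.4 for kept peaks (interquartile range 17.2 to 44.6) and 16.99 for gained peaks (13.3 to 22.9). In the 48-hour list it was 27.5 for kept peaks (17.4 to 47.2) and 15.8 for lost peaks (12.4 to 23.3). The classes overlapped widely, since the upper quartile of lost peaks lay above the lower quartile of kept peaks.

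The kept share was higher at higher scores in both lists. Each list was cut into 10 bins of equal size by score (deciles), and the share increased at every step but 1, between the third and the fourth iHep decile. It was 37.8% in the lowest decile of the iHep list and 93.6% in the highest decile. In the 48-hour list it was 10.3% in the lowest decile and 72.1% in the highest. All 10 of the highest-scoring iHep peaks were kept, as were 93 of the top 100 and 853 of the top 1000. At 48 hours 9 of the top 10 were kept, 85 of the top 100 and 654 of the top 1000.

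**Figure D1:**
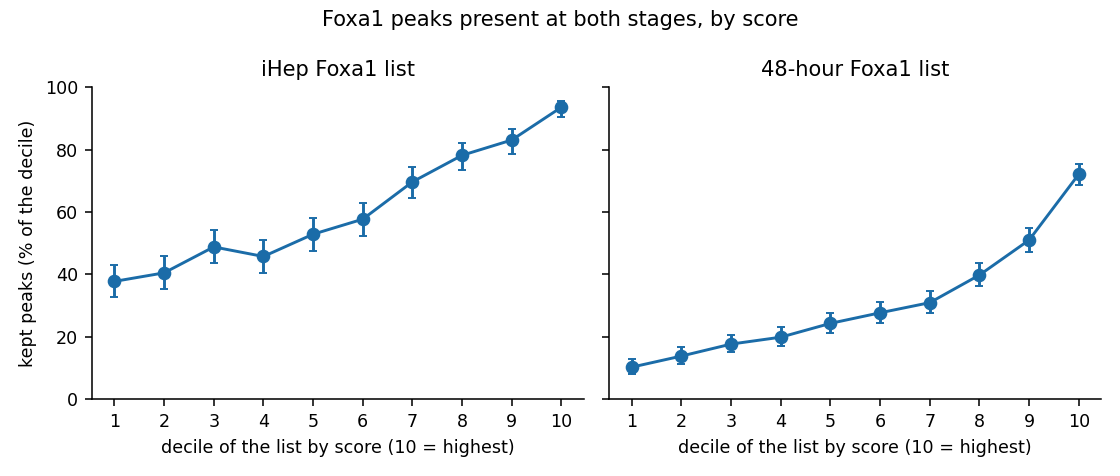
The share of kept Foxa1 peaks (percent, points) is plotted for each decile of the iHep list (left) and of the 48-hour list (right), ordered by score, with 95% Wilson intervals as bars. The iHep points reach 93.6% and the 48-hour points 72.1% in the highest decile.

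Kept peaks were wider than the other peaks, and at equal score most of this difference was absent. Median widths in the iHep list were 439 bp for kept and 376 bp for gained peaks, and in the 48-hour list 491 bp for kept and 416 bp for lost peaks. Within deciles of equal score the median width of kept peaks differed from that of the others by -10.0 to 10.5 bp in the iHep list and by -5.5 to 13.5 bp in the 48-hour list. Kept peaks were the wider in 6 of 10 iHep deciles and in 7 of 10 at 48 hours. Across peaks, score and width had a Spearman correlation of 0.770 in the iHep list and 0.745 in the 48-hour list, given as a description.

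The highest kept sites kept their place at the top of both lists. The peak with rank 1 in both lists lay at chr10:86307872-86308791 on mm9 and scored 781 in iHep cells and 957 at 48 hours. It was also a peak for Foxa2 at both stages, for Foxa3 at 48 hours, and for Hnf4a in iHep cells of the Foxa1 and Foxa2 lines. It had rank 2 in the iHep Foxa2 list and again rank 1 in the 48-hour Foxa2 list. The next sites, chr4:3734032-3734910 and chr1:75334198-75334988, had ranks 2 and 3 in both Foxa1 lists. A site at chr1:75689498-75690237 stood out from these, with rank 64 in the iHep list and rank 4 at 48 hours. The last of the 5, chr9:61656138-61656966, had rank 4 in iHep cells and rank 6 at 48 hours. Positions are mm9 with the first base counted as 1, and genes and bases at these positions were not analysed here.

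Binding at a kept site was found at nearly the same place at both stages. The 2 lists formed 2090 overlapping pairs, and 2082 of these joined 1 peak to 1 peak. In the 1-to-1 pairs the centres lay a median of 29 bp apart, 73.1% of them within 50 bp and 94.9% within 100 bp. In 61.0% of pairs 1 peak lay wholly inside the other. The iHep peak was the narrower in 1389 pairs (66.7%), with a median width ratio of iHep over 48 hours of 0.897.

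The order of scores was only loosely shared. Across the 2082 pairs the iHep and 48-hour scores had a Spearman correlation of 0.389, a description over sites that share 2 libraries. Of the kept peaks in the top quartile of pairs by 48-hour score, 52.0% were in the top quartile by iHep score and 27.8% were in its lower 50%.

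The line between kept and lost was drawn at 1 bp, but few sites lay near it. The kept pair with the smallest overlap shared 54 bp, at 48-hour peak chr1:194957276-194957672, and the next pairs shared 161 and 177 bp. On the other side, the lost peak at chr5:117608557-117609054 ended 42 bp from an iHep peak, and the next lost peaks lay 150 and 167 bp from one. Gained peaks were a median of 87264.5 bp from the nearest 48-hour Foxa1 peak, and 20 of them (1.49%) had one within 1 kb. Lost peaks were a median of 229340 bp from the nearest iHep Foxa1 peak, and 35 of them (0.746%) had one within 1 kb. The 48-hour list is the longer, so a gained peak has more peaks that could lie near it.

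Most gained sites were held by Foxa2 in iHep cells, though a smaller share than of kept sites, and few were held by Foxa2 at 48 hours. Over all iHep Foxa1 peaks the iHep Foxa2 list held 85.3%, the 48-hour Foxa2 list 30.7% and the iHep Hnf4a list of the Foxa1 line 7.16%. Kept peaks of the iHep list were held by the iHep Foxa2 list in 92.1% and by the 48-hour Foxa2 list in 47.3% of cases. Of the 1346 gained peaks, 1006 (74.7%, 72.4% to 77.0%) overlapped an iHep Foxa2 peak, and 65 (4.83%, 3.81% to 6.11%) overlapped a 48-hour Foxa2 peak. Of the gained peaks, 950 were in the iHep Foxa2 list alone, 56 in both Foxa2 lists, 9 in the 48-hour list alone and 331 in neither. The iHep Foxa2 list is the longer of these, with 10330 peaks against 6827 at 48 hours. The low share at 48 hours held along the score. The 48-hour Foxa2 list held 6.57% of gained peaks in the lowest quartile of the iHep list and 1.65% (2 of 121) in the highest. The difference in the iHep Foxa2 list did not hold at high scores. That list held 84.3% of kept and 64.3% of gained peaks in the lowest quartile, and 98.6% and 98.3% in the highest. Kept peaks had the higher share there in 7 of 10 deciles.

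Lost sites were partly sites of Foxa2 in iHep cells. Over all 48-hour Foxa1 peaks the iHep Foxa2 list held 52.8%, the 48-hour Foxa2 list 45.8% and the iHep Hnf4a list of the Foxa1 line 3.01%. Of kept peaks 92.1% (90.9% to 93.2%) overlapped an iHep Foxa2 peak, against 1657 of the 4694 lost peaks (35.3%, 33.9% to 36.7%). These 1657 sites were thus peaks for a Foxa protein in iHep cells, although not in the iHep Foxa1 list. The iHep Foxa2 list is the longer one, with 10330 peaks against 3435. When it and both Foxa1 lists were all cut to their 3435 highest peaks, which also left 1919 lost peaks, 15.6% of those were held. Split by both Foxa2 lists, 705 lost peaks were in both, 952 (20.3%) in the iHep list alone, 1413 (30.1%) in the 48-hour list alone and 1624 (34.6%) in neither.

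**Figure D2:**
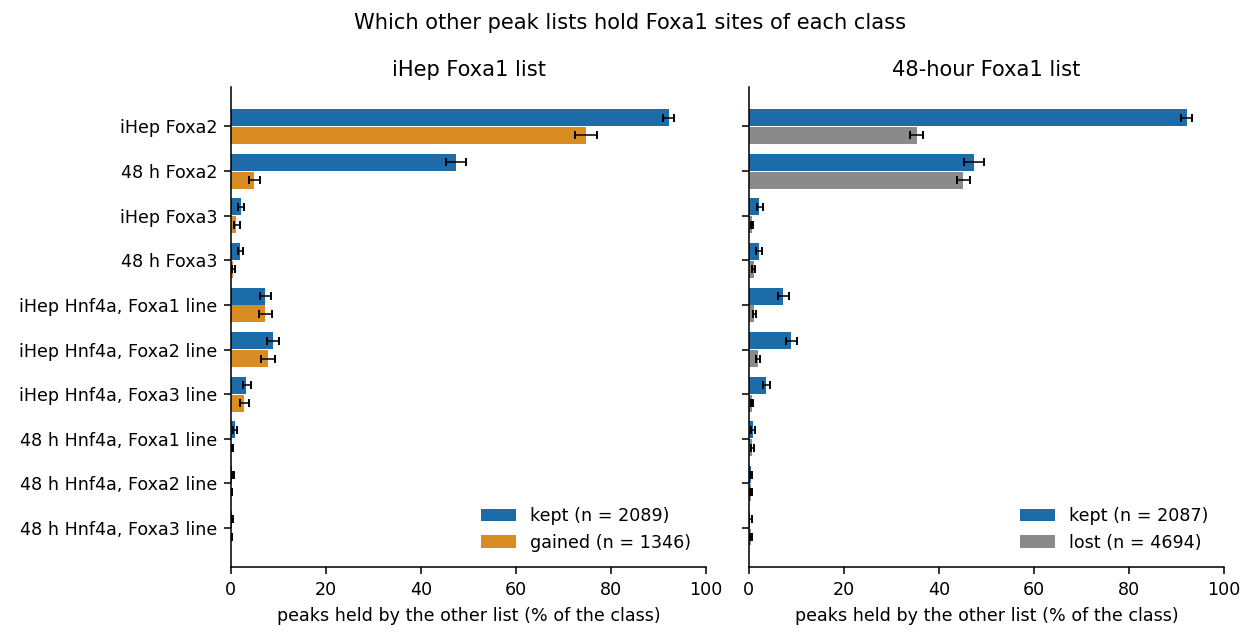
Bars give the share of Foxa1 peaks of each class (percent, with 95% Wilson intervals) that overlap a peak of each other list, for kept and gained peaks of the iHep list (left) and kept and lost peaks of the 48-hour list (right). Gained peaks reach 74.7% in the iHep Foxa2 list and 4.83% in the 48-hour Foxa2 list, while lost peaks reach 35.3% and 45.1%.

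At 48 hours Foxa2 held kept and lost Foxa1 sites about equally, in 47.3% (45.2% to 49.5%) of kept and 45.1% (43.7% to 46.5%) of lost peaks. The order turned round with lists of equal length, at 42.7% of kept and 46.6% of lost peaks. At equal score the shares differed, and the lost sites were the more often held. In each of the 10 score deciles of the 48-hour list the 48-hour Foxa2 list held a smaller share of kept than of lost peaks. In the lowest quartile it held 14.8% of kept and 28.5% of lost peaks, and in the highest quartile 70.8% of kept and 76.6% of lost peaks. Averaged over the deciles, the shares were 34.6% of kept and 50.4% of lost peaks. The near equality of the undivided shares came with the higher scores of kept peaks, and the share held by Foxa2 was higher in each successive score quartile of both classes. Read the other way, 48-hour Foxa1 peaks inside the 48-hour Foxa2 list were kept in 6.83%, 13.7%, 22.5% and 55.7% of cases from the lowest to the highest score quartile. Those outside it were kept in 14.4%, 26.6%, 39.0% and 62.9%. The difference at equal score kept its direction under all 8 other settings tried.

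**Figure D3:**
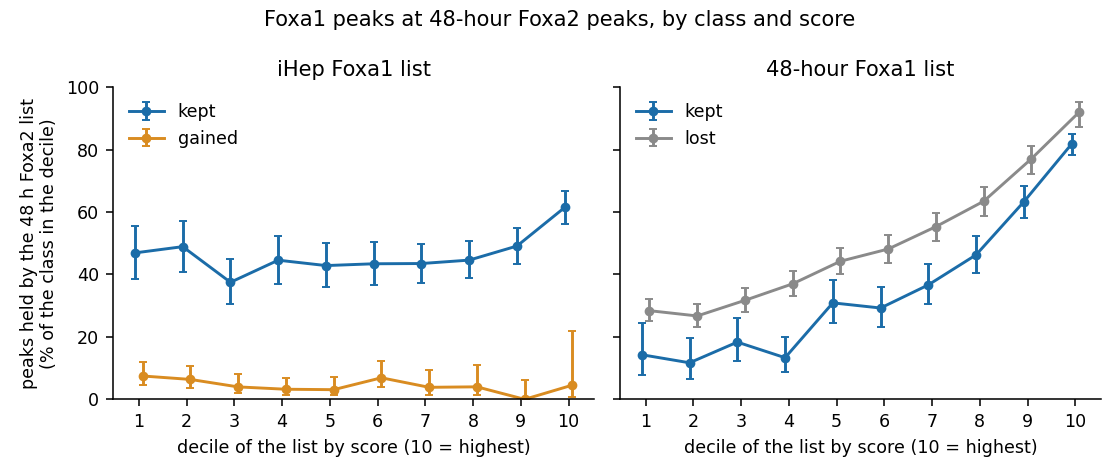
The share of Foxa1 peaks held by the 48-hour Foxa2 list (percent, points, with 95% Wilson intervals) is plotted by score decile for kept and gained peaks of the iHep list (left) and kept and lost peaks of the 48-hour list (right). In every 48-hour decile the kept points lie under the lost points, and in every iHep decile the kept points lie above the gained points.

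The highest lost sites were all 48-hour Foxa2 peaks, as were all 5 of the highest kept sites. Such overlap was common at high scores. In the highest score decile of the 48-hour list, the 48-hour Foxa2 list held 84.7% of all, 81.8% of kept and 92.1% of lost peaks. The lost peak with the highest score, at chr11:16536416-16537167, had rank 5 among all 48-hour Foxa1 peaks. It had only rank 9604 of 10330 in the iHep Foxa2 list, against rank 15 in the 48-hour Foxa2 list. The next, at chr3:83919834-83920618, had Foxa1 rank 13, with rank 3794 in the iHep Foxa2 list and rank 2 in the 48-hour Foxa2 list. The peak at chr8:110208619-110209215 had Foxa1 rank 45. No iHep list held it, and it had rank 5 in the 48-hour Foxa2 list. Not every such site stood low in the iHep Foxa2 list, since chr13:83485057-83485727 had rank 675 there. The remaining site of the 5, chr2:67955406-67956045, had rank 2148. The 48-hour Foxa3 list held 3 of the 5 highest kept and 4 of the 5 highest lost sites. In the highest score decile it held 28 of 489 kept (5.73%, 3.99% to 8.15%) and 17 of 189 lost peaks (8.99%, 5.69% to 13.9%), with overlapping intervals, and over all scores 2.06% of kept and 1.02% of lost peaks. The nearest iHep Foxa1 peak was between 100104 and 2066690 bp away.

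The highest gained sites had lower ranks in their list than the highest lost sites, among fewer peaks (1346 gained against 4694 lost). The first, at chr15:61277775-61278391, had rank 14 in the iHep Foxa1 list and rank 74 in the iHep Foxa2 list. It was also an iHep Hnf4a peak in the Foxa1 and Foxa2 lines, which none of the next 4 was. Those 4, at chr8:96212602-96213114, chr11:112898956-112899509, chr6:37568823-37569411 and chr1:177537938-177538491, had ranks 73 to 83 in the iHep Foxa1 list. Each was held by the iHep Foxa2 list and by no other list. The iHep Foxa2 list held nearly every peak at such scores, 342 of 344 in the highest decile of the iHep Foxa1 list, among them all 22 gained peaks.

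Hnf4a in iHep cells of the same line lay at kept and gained sites alike, and seldom at lost sites. The iHep Hnf4a list held 150 of 2089 kept (7.18%, 6.15% to 8.37%) and 96 of 1346 gained iHep peaks (7.13%, 5.88% to 8.63%). Seen from the 48-hour list, it held 151 kept (7.24%, 6.20% to 8.43%) and 53 lost peaks (1.13%, 0.864% to 1.47%). With the upper 50% of every list by score the lost share was 0.675%. The kept share was above the lost share in all 10 score deciles of the 48-hour list, with averages over the deciles of 7.75% and 1.03%. Between kept and gained iHep peaks the direction varied, with kept the higher in 4 of 10 deciles and the averages at 6.68% and 7.20%. The iHep Hnf4a lists of the other lines showed the same order. In the Foxa2 line the shares were 8.91% of kept and 1.96% of lost peaks, and in the Foxa3 line 3.64% and 0.703%.

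At 48 hours few Foxa1 sites of any class held an Hnf4a peak, in a list of only 418 Hnf4a peaks for the Foxa1 line. That list held 17 kept peaks and 36 lost peaks, under 1% of either class, and 1 gained peak. Over all peaks it held 0.782% of the 48-hour and 0.524% of the iHep Foxa1 list. Of the 36 lost peaks, 15 lay in 3 dense blocks where each 48-hour Hnf4a list has a chain of at least 5 peaks. From the Hnf4a side, 19 of the 418 peaks (4.55%) lay at sites of both Foxa1 lists and 139 (33.3%) at sites of the 48-hour list alone, and 115 of those 139 were in the blocks. The largest block, chr9:3000016-3038294, held 12 lost peaks of the 48-hour Foxa1 list and no iHep Foxa1 peak. The blocks also held 12 of the 22 lost peaks that were wider than 1 kb. What these blocks are was not tested.

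Foxa3 lists held few Foxa1 sites of any class. In the iHep Foxa3 list were 43 kept peaks of the iHep list (2.06%) and 16 gained peaks (1.19%), against 1.72% of all iHep Foxa1 peaks. Of the 48-hour Foxa1 list it held 46 kept peaks (2.20%) and 31 lost peaks (0.660%), against 1.14% of all. This low share belongs to the Foxa3 lists as a whole. The iHep Foxa3 list has 12661 peaks, of which 2.01% overlapped the iHep Foxa2 list and 43.8% the 48-hour Foxa3 list. The 1 peak listed for the tagged del2 mutant of Foxa3 lay at a kept Foxa1 site. Some Foxa1 sites were in no other list at all. In the iHep list they were 108 kept peaks (5.17%) and 300 gained peaks (22.3%), against 11.9% of all its peaks. In the 48-hour list they were 107 kept peaks (5.13%) and 1597 lost peaks (34.0%), against 25.1% of all. These shares were lower at high scores. From the lowest to the highest score quartile they went from 31.7% to 1.65% of gained peaks. For lost peaks they went from 48.0% to 12.1%, and for kept 48-hour peaks from 12.9% to 2.25%.

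Kept and lost sites had similar spacing, and sites near each other were more often of the same class. In the 48-hour list the nearest other Foxa1 peak lay a median of 67960 bp from kept and 71257 bp from lost peaks. In the iHep list the medians were 125879 bp for kept and 114406 bp for gained peaks. Within 10 kb of a neighbour, a 48-hour peak was kept in 151 of 317 cases (47.6%) if that neighbour was kept and in 161 of 684 (23.5%) if it was lost. iHep peaks were kept in 160 of 232 cases (69.0%) beside a kept and in 74 of 172 (43.0%) beside a gained neighbour.

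The likeness of neighbours weakened with distance. For 48-hour peaks up to 2 kb apart, 50 of 100 were kept beside a kept neighbour and 50 of 234 (21.4%) beside a lost one. With neighbours over 200 kb away the shares were 34.7% and 29.3%. The difference was present in each score quartile of the 48-hour list within 10 kb, from 21.4% against 10.1% in the lowest to 73.6% against 45.1% in the highest. Adjacent peaks may come from 1 enriched region, and each of a pair can be the other's neighbour, so these peaks are not independent. Joined at gaps of up to 10 kb, the 48-hour list formed 466 groups of several peaks, of which 66 were wholly kept, 239 wholly lost and 161 mixed.

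**Figure D4:**
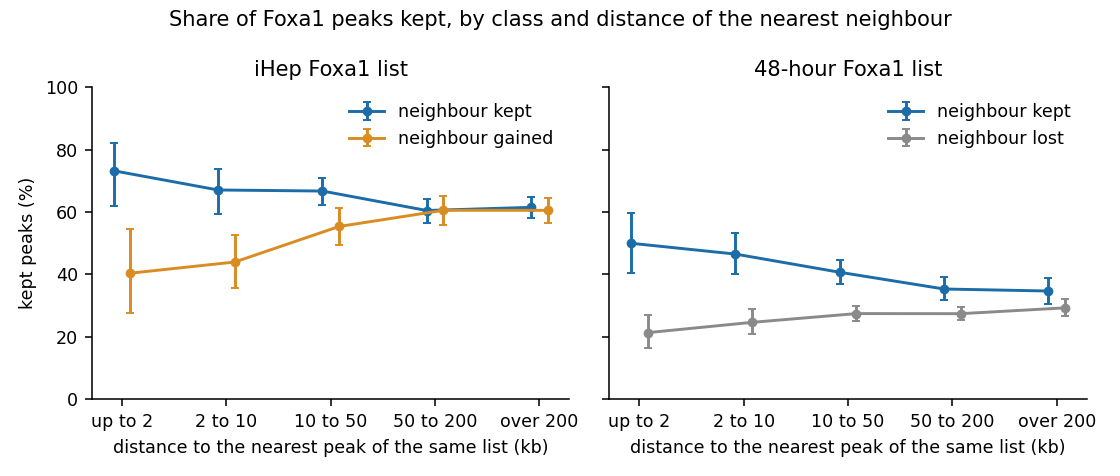
The share of kept Foxa1 peaks (percent, points, with 95% Wilson intervals) is plotted against the distance to the nearest peak of the same list (kb, in 5 classes), for peaks with a kept neighbour and peaks with a neighbour that was gained (iHep list, left) or lost (48-hour list, right). At up to 2 kb, 50 of 100 and 50 of 234 peaks of the 48-hour list are kept, and over 200 kb the shares are 34.7% and 29.3%.

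Kept sites were spread over all chromosomes that held peaks. These were the 19 autosomes and X. Autosomes had between 0.955 and 1.76 peaks per Mb in the iHep list (median 1.34) and between 1.66 and 3.25 in the 48-hour list (median 2.64). The X chromosome had 0.372 peaks per Mb in the iHep list and 0.666 at 48 hours, below every autosome in both. The kept share of 48-hour peaks lay between 25.6% on chromosome 12 and 38.1% on chromosome 9. Chromosomes 7, 9 and 11 had intervals wholly above the list's 30.8%, and chromosomes 6 and 12 wholly below it. In the iHep list the kept share ranged from 48.4% on X to 67.4% on chromosome 9.

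**Figure D5:**
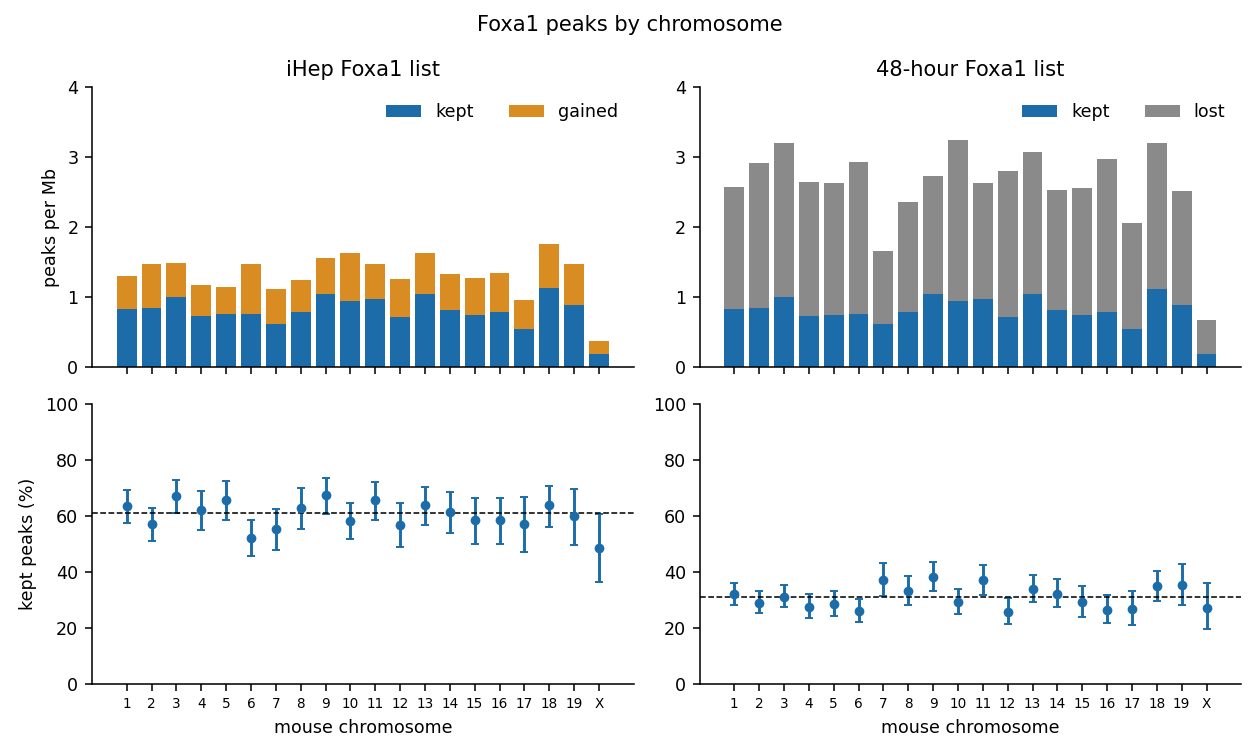
Foxa1 peaks per Mb (upper row, stacked bars of kept and gained or kept and lost peaks) and the kept share (lower row, percent, points with 95% Wilson intervals, the list's share as a dashed line) are plotted by chromosome for the iHep list (left) and the 48-hour list (right). The X chromosome has the lowest density in both lists.

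Within chromosomes the kept share varied between windows, and 1 window held lost sites alone. Among the 106 windows of 5 Mb with at least 20 peaks at 48 hours, the median kept share was 30.6% and the range 0% to 66.7%. The window chr16:70000001-75000000 held no iHep Foxa1 peak and 26 Foxa1 peaks at 48 hours, all lost. The Foxa2 lists had 4 peaks there in iHep cells and 18 at 48 hours, and the iHep Hnf4a list of the Foxa1 line had none. At the other end, 18 of 27 peaks were kept in chr9:60000001-65000000, the window that also holds the fifth of the highest kept sites. Both windows were named after their values were seen. The number of DNA copies of these windows in either library was not analysed here.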

How the data were processed

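Each file is a peak list of 1 sample, with the chromosome, start, end, name and score of each peak as the authors deposited them. No source used here states how the authors computed the score or whether they used an input. The series does list an input sample for each stage of the Foxa1 line, which was not used here. The tools were MACS2 2.1.0, BWA 0.6.2 and bedtools 2.16.2 on mm9, per the submitters' processing notes, which give no role for any of them. No reads or counts were used, so depth is unknown. Titles gave each sample's stage, line and antibody, with 1 library per group.

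Sites counted as shared when peaks overlapped by 1 bp or more. Shares were computed with Python 3.11.15, NumPy 2.4.6, pandas 2.3.3 and SciPy 1.17.1, and drawn with matplotlib 3.10.9. The code was checked on simulated lists of known overlap. Shares carry 95% Wilson intervals. Score deciles and quartiles were cut within a list. Averages over deciles weight each by its number of peaks. Named sites are the 5 highest-scoring kept (by 48-hour score), lost and gained peaks, and the 3 kept and 3 lost sites nearest the kept-or-lost line. The classes, lists and rules were chosen with earlier results of these data known. Alternatives were a 50% overlap, centres within 200 bp, a margin of 500 bp, the upper 50% of scores, equal length, autosomes alone and merging within 500 bp. Removing 3 dense blocks with 10 kb on each side was chosen after seeing the data.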

Additional observations from a re-analysis of the deposited data

How the results depend on the processing

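Of 112 values recomputed under 8 settings, 94 stayed within the bounds of the reported value and 18 moved beyond them. No ratio and no difference at equal score changed direction. The bounds were 95% intervals, except for the ratios of medians. For these, opposite ends of the intervals of both medians were divided, which gives wider bounds than a 95% interval. Nearly equal shares changed order in 2 cases. Those of kept and lost peaks in the 48-hour Foxa2 list did so at equal length (42.7% and 46.6%). Those of kept and gained peaks in the iHep Hnf4a list of the line (7.18% and 7.13% as reported) did so with a margin of 500 bp (7.63% and 7.78%), at equal length (7.20% and 8.57%) and without the dense blocks (7.05% and 7.13%). For shares in this Hnf4a list, equal length meant that every list was cut to its 1580 highest peaks. All other values at equal length used 3435 peaks. Lists of equal length moved the most. With them the kept share was 44.2% of iHep peaks (60.8% as reported) and 44.1% of 48-hour peaks (30.8%), and the iHep Foxa2 list held 15.6% of lost peaks (35.3%). The ratio of medians, kept over lost, was then 1.40 for score (1.74 as reported) and 1.09 for width (1.18). With the upper 50% of scores these were 33.3% of lost peaks, 1.55 for score and 1.10 for width, and that Hnf4a list held 5.77% of kept, 4.89% of gained and 0.675% of lost peaks (1.13% of lost peaks as reported). The share of gained peaks in the 48-hour Foxa2 list ranged from 3.88% to 5.16%. The difference between kept and lost peaks in that list at equal score ranged from -17.2 to -14.7 percentage points (-15.8 as reported). The kept share beside a kept neighbour within 10 kb reached 64.8% at equal length. No paired analysis was possible because each group has 1 library and no test was made. For the same reason no library could be left out. The unknown depth limits every statement on an absent peak.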

Other observations

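Seen from the Foxa2 lists, sites shared with Foxa1 stood above those shared with neither Foxa1 list, and sites of both Foxa1 lists stood highest. In the iHep Foxa2 list the 1920 peaks at sites of both Foxa1 lists had a median rank percentile of 85.7, where 100 is the highest score. The 1000 peaks at iHep Foxa1 sites alone stood at 67.1, the 1657 at 48-hour Foxa1 sites alone at 55.0, and the 5753 at neither at 35.6. In the 48-hour Foxa2 list the 988 peaks at sites of both Foxa1 lists stood at 73.5, the 65 at gained sites at 44.4, the 2104 at lost sites at 65.3 and the 3670 at neither at 36.7. The 1000 highest 48-hour Foxa2 peaks included 494 of the 2104 at lost Foxa1 sites and 338 of the 988 at kept ones, a larger part of the latter. In the iHep Hnf4a list of the Foxa1 line the 150 peaks at sites of both Foxa1 lists stood at 65.1, against 54.0 for 97 at gained sites, 50.3 for 56 at lost sites and 47.9 for 1277 at neither.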
